A study of Mus musculus with 56 samples.

Results

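Foxn1 and 7 other regulators of thymic organogenesis were followed in thymic epithelial cells (TECs) of the mouse during pregnancy and after parturition: Pax1, Pax9, Hoxa3, Eya1, Six4, Trp63 and Tbx1. The 8 genes were chosen by name, found by their Ensembl identifiers and GENCODE M21 symbols, and are 8 of the 50600 genes in each table. RNA sequencing had been done on 28 samples of cortical TECs (cTECs, EpCAM+CD45- cells that did not bind the lectin UEA1) and 28 samples of medullary TECs (mTECs, which bound UEA1), each from 1 mouse. All were females of the B6.SJL strain (CD45.1), mated with BALB/cJ males unless non-pregnant, whose pups were removed at birth. Age-matched non-pregnant controls (NPC), females at day 18 of gestation (D-2) and females on D0, D3, D6 and D12 after parturition gave 3 samples per cell type. The 10 remaining days (D1, D2, D4, D5 and then D8, D10, and in the late phase D16, D20, D24, D28) gave 1 sample each. D0 to D12 is the early phase of thymic regrowth (18 samples per cell type) and D16 to D28 the late phase (4 samples). The females' age in weeks is not given in the sources used here. Nor is it given whether a cTEC and an mTEC sample came from the same mouse. A sorted population holds whatever other cells passed the UEA1 gate.

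Foxn1 is a forkhead transcription factor that TECs need in order to differentiate and to attract and instruct lymphoid progenitors, and animals without it have no functional thymus. Before Foxn1 is switched on, the thymus and parathyroid primordia are patterned in the pharyngeal pouch endoderm by a network that includes Hoxa3, Pax1, Pax9, Eya1 with homeobox partners such as Six4, and Tbx1. Trp63 encodes p63, which maintains the proliferative capacity of stratified and thymic epithelia. The question here was whether the other regulators moved with Foxn1 in the thymus of these females as it shrank and regrew, or followed a course of their own.

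All 8 genes lie on the main chromosomes of GRCm38. Foxn1 (ENSMUSG00000002057) is at chr11:78357577-78386558 on the minus strand, Pax1 (ENSMUSG00000037034) at chr2:147361925-147393295 on the plus strand and Pax9 (ENSMUSG00000001497) at chr12:56691767-56712822 on the plus strand. Hoxa3 (ENSMUSG00000079560) is at chr6:52169062-52213336 on the minus strand, Eya1 (ENSMUSG00000025932) at chr1:14168954-14310235 on the minus strand and Six4 (ENSMUSG00000034460) at chr12:73099609-73113456 on the minus strand. Trp63 (ENSMUSG00000022510) is at chr16:25683763-25892102 on the plus strand and Tbx1 (ENSMUSG00000009097) at chr16:18580979-18590671 on the minus strand. Exons of 3 members overlap exons of other genes: Pax1 those of the antisense gene AI646519, Pax9 those of Slc25a21 on the opposite strand, and Hoxa3 those of Gm28308 on its own strand and of Hoxaas2, Hoxaas3 and 2 further genes on the other. The library kit marks strand, but whether the counting used it is not given in the sources used here, so the reads of these pairs may be split imperfectly. AI646519 averaged 22.8 FPKM in cTECs and 6.94 FPKM in mTECs, far under Pax1, whereas Hoxaas2 reached 4.49 FPKM in cTECs against 7.94 FPKM for Hoxa3.

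The promoters of Foxn1, of Pax1, the member with the highest correlation with Foxn1 in both cell types, and of Pax9, the paralogue of Pax1 with a negative correlation, are printed below 5′ to 3′ on the gene's own strand (RefSeq, GRCm38.p6, 250 bases before to 50 after the annotated start). They are at chr11:78386559-78386858, chr2:147364744-147365043 and chr12:56695221-56695520, and capitals mark GACGC, the core of the published FOXN1 binding motif, searched on both strands.
Foxn1: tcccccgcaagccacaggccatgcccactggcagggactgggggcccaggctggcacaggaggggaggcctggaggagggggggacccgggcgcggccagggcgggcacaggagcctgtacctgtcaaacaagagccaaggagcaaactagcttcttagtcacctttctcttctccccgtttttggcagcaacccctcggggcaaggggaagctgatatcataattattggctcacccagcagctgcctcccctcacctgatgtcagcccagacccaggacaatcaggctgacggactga
Pax1: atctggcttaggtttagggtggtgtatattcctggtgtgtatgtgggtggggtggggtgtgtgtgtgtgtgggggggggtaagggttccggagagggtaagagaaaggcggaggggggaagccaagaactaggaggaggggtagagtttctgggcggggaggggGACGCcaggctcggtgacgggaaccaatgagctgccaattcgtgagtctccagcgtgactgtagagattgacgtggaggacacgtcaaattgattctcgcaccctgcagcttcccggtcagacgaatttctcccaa
Pax9: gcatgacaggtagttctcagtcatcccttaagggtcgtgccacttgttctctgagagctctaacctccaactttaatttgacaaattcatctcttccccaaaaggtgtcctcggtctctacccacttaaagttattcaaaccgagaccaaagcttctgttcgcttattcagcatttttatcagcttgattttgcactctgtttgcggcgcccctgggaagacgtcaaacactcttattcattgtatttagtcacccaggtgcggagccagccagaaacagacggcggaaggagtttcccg
GACGC or its reverse complement is held by 27.2% of all 32851 promoters of the same length. It stood at 1 place in the Pax1 window, nowhere in those of Foxn1 and Pax9, at 2 places in that of Hoxa3, in 1 of the 2 windows of Tbx1 and in neither window of Six4. Eya1 and Trp63 were not among the 6 members matched. A match of 5 letters is a description of the sequence.

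Total estimated counts ran from 6470058 to 44409019 in cTECs (median 22823582) and from 4561208 to 108547384 in mTECs (median 15590738). Several libraries stood apart. The nuclear RNA Neat1 was at 150 CPM (counts scaled to library totals) or more in the cTEC samples NPC replicate 3 (276 CPM), D6 replicate 3 (195 CPM), D16 (395 CPM) and D28 (561 CPM) and in the mTEC samples NPC replicate 3 (344 CPM), D3 replicate 3 (195 CPM) and D16 (565 CPM). The mitochondrial share of counts was 1.16% to 1.41% in those 4 cTEC samples and 1.74% or more in the other 24. Separately, cTEC D3 replicate 2 and D20 and mTEC D3 replicate 1 and D0 replicate 2 had the lowest rank correlation with the other libraries of their cell type (medians of 0.763, 0.828, 0.789 and 0.810). Of the cTEC markers, 5 of 6 (such as Prss16 and Psmb11) were higher in cTECs, and of the mTEC markers 7 of 9 (such as Aire and Spib) were higher in mTECs, in the direction of the labels.

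All 8 genes passed the filter of a mean of 0.5 FPKM (fragments scaled to the library total and to transcript length, so a level per length) in both cell types. Their mean levels spanned 422-fold in cTECs and 120.4-fold in mTECs, in the same order. Pax1 was the highest, at 534 ± 168 FPKM in cTECs and 191 ± 77.1 FPKM in mTECs (SD, n = 28 samples over all time points). Only 1.06% of genes tested in cTECs and 2.40% in mTECs were at or above it. Pax1 was above Foxn1 in 28 of 28 samples of each cell type, although Foxn1, at 178 ± 73.8 and 118 ± 46.0 FPKM, is the gene better known as the defining TEC factor.

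Trp63 came next, at 110 ± 28.5 FPKM in cTECs and 73.7 ± 22.3 FPKM in mTECs, and its distance to Foxn1 was within the spread: Foxn1 was the higher gene in 20 of 28 cTEC and 22 of 28 mTEC samples. Eya1 (44.6 ± 9.61 and 36.5 ± 8.87 FPKM) and Pax9 (37.5 ± 9.74 and 25.9 ± 7.68 FPKM) formed a middle pair with overlapping ranges, Eya1 being above in 25 of 28 samples of each cell type. Both were below Trp63 in every sample. Hoxa3 (7.94 ± 3.36 and 6.70 ± 7.67 FPKM) and Six4 (4.85 ± 1.58 and 4.94 ± 1.62 FPKM) were lower again, and in mTECs Hoxa3 was above Six4 in 16 of 28 samples, so their order did not hold there. Tbx1 was close to the limit of detection, at 1.27 ± 1.42 and 1.58 ± 1.63 FPKM, and was listed at 0 in 6 cTEC and 3 mTEC samples.

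**Figure D1:**
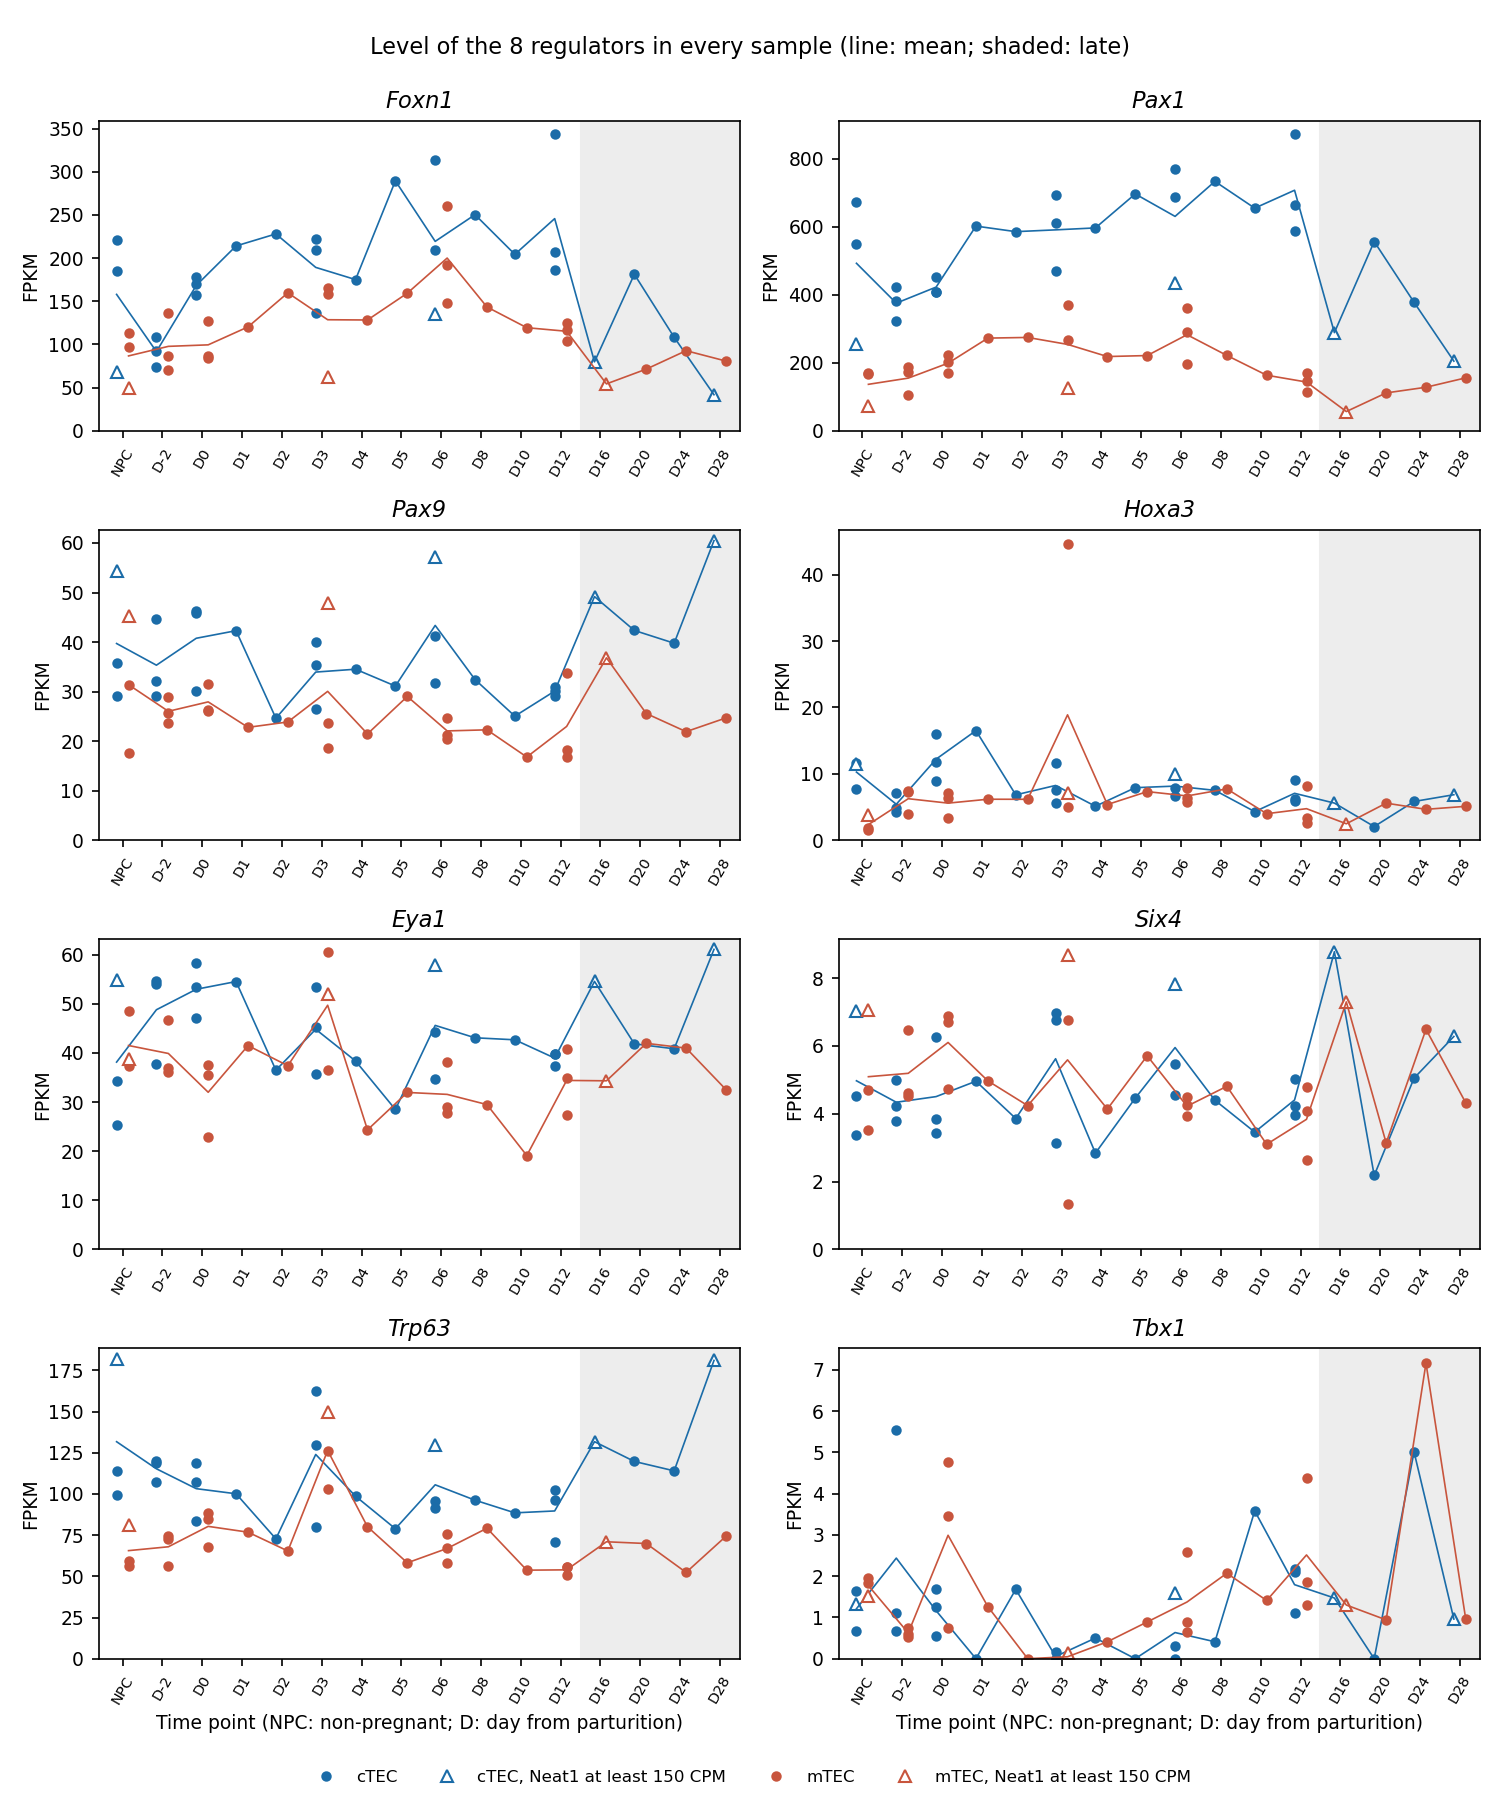
FPKM (vertical axes, each from 0) of the 8 regulators in every sample by time point (horizontal axes; D is the day from parturition), with cTECs in blue and mTECs in red. Lines join the time point means, triangles are the libraries with at least 150 CPM of Neat1, and shading marks the late phase. Pax1 in cTECs lies between 205 and 872 FPKM, and its late samples, like those of Foxn1 and Hoxa3, all lie below the early median in both cell types.

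Pregnancy itself left these genes with no called change. A gene was called when it differed at least 2-fold with an adjusted p of 0.01 or less (limma-voom, Benjamini-Hochberg over all genes tested). Between NPC and D-2, 0 of 8 members were called in cTECs, where 0.0947% of all genes were, and 0 of 8 in mTECs, where 0.569% were. At an unadjusted p under 0.05 there were 0 members in cTECs (8.36% of all genes) and 1 in mTECs (16.8% of all genes), and edgeR and DESeq2 also called 0 in each.

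That 1 gene was Hoxa3, a homeobox gene without which neither thymus nor parathyroid forms. In mTECs it was at 1.81, 1.46 and 3.73 FPKM in the NPC samples and at 3.99, 7.26 and 7.47 FPKM at D-2. The D-2 samples were all above the NPC samples in FPKM but overlapped with them by library total alone, where the lowest D-2 sample was at 6.75 CPM and the highest NPC sample at 7.44 CPM. The fitted log2 difference was 1.55 (SE 0.56, limma-voom adjusted p = 0.168). In cTECs the values went the other way, from 7.75, 11.6 and 11.4 FPKM to 4.27, 7.10 and 4.84 FPKM (log2 difference -0.90, SE 0.48, adjusted p = 0.663). Neither met the threshold. For the remaining members the fitted log2 differences at D-2 ran from -0.64 (Foxn1) to 0.59 (Tbx1) in cTECs and from -1.45 (Tbx1) to 0.25 (Pax1) in mTECs. In each cell type the library numbered NPC replicate 3, high in Neat1, had the lowest NPC values of Foxn1 and Pax1 (67.8 and 254 FPKM in cTECs). The shared number need not mean a shared mouse. With each sample left out in turn, the cTEC estimates ran from -1.19 to -0.30 for Foxn1 and from -0.74 to 0.03 for Pax1. In mTECs they ran from -0.22 to 0.37 and from -0.07 to 0.48, and none were called.

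At the replicated time points from D0 to D12 the cTEC means of Foxn1 and Pax1 were both above those at D-2. In cTECs, Pax1 was at 422, 323 and 382 FPKM at D-2, at 451, 409 and 409 FPKM at D0, at 611, 693 and 470 FPKM at D3, at 771, 688 and 434 FPKM at D6 and at 872, 588 and 664 FPKM at D12. Foxn1 was at 109, 74.3 and 92.3 FPKM at D-2, at 170, 157 and 178 FPKM at D0, at 222, 209 and 136 FPKM at D3, at 314, 209 and 135 FPKM at D6 and at 344, 186 and 207 FPKM at D12. All D0 samples of Foxn1 were above all D-2 samples, whereas Pax1 overlapped between those days, with fitted log2 differences of 0.86 (SE 0.39) and 0.13 (SE 0.30), neither of them called (limma-voom adjusted p of 0.999 for both). For both genes every D6 sample was above every D-2 sample. The share of all genes whose samples separate between groups of 3 is not given here. Such orders, here and elsewhere in the text, are therefore descriptions. The lowest D6 sample of each was replicate 3, a library with high Neat1.

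In cTECs, D6 minus D-2 came to a fitted log2 difference of 1.19 for Foxn1 (SE 0.38, limma-voom adjusted p = 0.0810) and 0.70 for Pax1 (SE 0.29, adjusted p = 0.193). In all, 0 of 8 members were called in cTECs, against 1.58% of all genes, and 0 of 8 in mTECs, against 0.0113%. At an unadjusted p under 0.05 there were 3 in cTECs (19.0% of genes) and 2 in mTECs (7.55% of genes). edgeR and DESeq2 called 0 as well. Without the high-Neat1 libraries Foxn1 was called in cTECs (log2 difference 1.49, SE 0.27, adjusted p = 0.00300, where 1.96% of genes were called). Pax1 then had an adjusted p of 0.00200 with a log2 difference of 0.96, just short of 2-fold.

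Markers of the sorted cells and of others moved with the same contrast in cTECs. The summed general TEC markers were at 3337 to 3719 FPKM at D-2 and at 5898 to 11485 FPKM at D6, and 1 of 4, Krt8, was called higher (log2 difference 1.46, adjusted p = 0.000784). That sum was mostly Krt18 and Krt8. Krt18 had a log2 difference of 1.28, whereas Epcam (0.15) and Cdh1 (0.03) were near 0. Of 6 cTEC markers, 5 were called higher, with a median log2 difference of 3.41. The 9 mTEC markers summed to 5466 to 7884 FPKM at D-2 and 3429 to 4057 FPKM at D6, with a median of -1.27 and 1 called lower, the chemokine Ccl21a (-1.16, adjusted p = 0.00810).

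The 16 thymocyte markers summed to 33.1 to 37.6 FPKM and then to 102 to 129 FPKM, with a median of 2.84 and 1 called higher, Themis (5.24, adjusted p = 0.00441). The 4 parathyroid markers had a median of -3.22 and the 6 mesenchymal markers tested one of -0.41, with none called by limma-voom in either list (3 and 1 at an unadjusted p under 0.05). The 3 D6 sums of general TEC, mTEC and thymocyte markers did not overlap with those at D-2. Their part in the Foxn1 and Pax1 differences was not tested.

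In mTECs, Pax1 was at 188, 104 and 173 FPKM at D-2 and at 198, 361 and 289 FPKM at D6, so that each D6 sample was above each D-2 sample. Foxn1 was at 137, 86.6 and 70.1 FPKM and then at 148, 260.2 and 192 FPKM, again without overlap. Their log2 differences were 0.78 (SE 0.35, adjusted p = 0.596) and 1.09 (SE 0.34, adjusted p = 0.246). Neither change could be told apart from that in cTECs: the interaction of cell type with D6 against D-2 was -0.05 for Pax1 (SE 0.48) and 0.11 for Foxn1 (SE 0.56), with adjusted p values of 1.00, and 0 of 8 members were called for it, against 0.00544% of genes (1 at an unadjusted p under 0.05, as were 4.91% of genes).

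The other members had no called change between D-2 and D6. Pax9, a paired box gene that the embryo needs to form a thymus, was at 29.1, 44.8 and 32.2 FPKM at D-2 and at 41.2, 31.7 and 57.2 FPKM at D6 in cTECs. Eya1, a phosphatase and transcriptional coactivator that works with homeobox partners, was at 54.0, 54.7 and 37.7 FPKM and then at 44.3, 34.7 and 57.9 FPKM. Both genes overlapped between the 2 time points. The log2 differences between D6 and D-2 in cTECs were 0.22 for Pax9 (95% interval -0.22 to 0.66), -0.18 for Eya1 (-0.50 to 0.15), -0.11 for Trp63 (-0.59 to 0.36), 0.32 for Six4 (-0.36 to 0.99) and 0.45 for Hoxa3 (-0.41 to 1.31).

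Over all 6 replicated time points, 0 of 8 members were called for any change in cTECs (moderated F test of limma), against 0.921% of genes, and 0 of 8 in mTECs, against 0.547%. At an unadjusted p under 0.05 there were 3 members in each cell type, as were 16.3% of genes in cTECs and 22.2% in mTECs. edgeR called 0 in both. Trp63 in mTECs was the nearest of the well-measured genes. It stood at 126, 103 and 150.1 FPKM at D3, against a highest value of 88.4 FPKM in the other 25 mTEC samples. By library total alone the lowest D3 sample, at 336 CPM, was below a D0 sample at 351 CPM, so that the order rests in part on the length estimates.

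The ratio of the highest to the lowest Trp63 time point mean was 1.98, just under 2-fold, with an adjusted p of 0.0359. Of those 3 mTEC samples, replicate 3 is a high-Neat1 library and replicate 1 one of those with the lowest rank correlation. The adjusted p was 0.0357 without the former kind and 0.0767 without the latter. In cTECs, Trp63 at D3 was at 79.9, 130 and 162 FPKM, which overlapped with D-2 (120.1, 119 and 107 FPKM).

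The late phase, here 4 days with 1 mouse each, was compared with the early phase. In cTECs Foxn1 was lower in the late than in the early phase, Pax1 had a smaller difference in the same direction, and Pax9, Eya1 and Trp63 had estimates of the opposite sign. Of the 8 members, 1 was called (Foxn1), against 2.08% of all genes, and 1 of 8 was called lower, against 0.366%. At an unadjusted p under 0.05 there were 6 members and 29.5% of genes. DESeq2 also called 1 and edgeR 0.

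Pax1 was at 409 to 872 FPKM in the 18 early cTEC samples, with a median of 607 FPKM, and at 289, 557, 378 and 205 FPKM at D16, D20, D24 and D28. Of the 4 late samples 3 were below the lowest early sample, and D20 was below the early median. The log2 difference was -0.91 (SE 0.23, adjusted p = 0.00878), which is 1.89-fold and short of the 2-fold threshold. Foxn1 was at 135 to 344 FPKM early, with a median of 208 FPKM, and at 79.9, 181 and 108 FPKM at D16, D20 and D24 and 41.8 FPKM at D28. Its log2 difference was -1.28 (SE 0.28, adjusted p = 0.00347), again with 3 of 4 late samples below all early ones.

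These 2 values rest in part on libraries that stand apart. The D16 and D28 samples, the lowest for both genes, are the late cTEC libraries with high Neat1. Without the 4 high-Neat1 cTEC libraries the log2 difference of Foxn1 was -0.67 (adjusted p = 0.0698) and that of Pax1 -0.46 (adjusted p = 0.159). Leaving out D16 alone left Foxn1 at -1.22 (adjusted p = 0.0126) and leaving out D28 at -0.88 (adjusted p = 0.0481). Without D20, one of the least correlated libraries, Pax1 was called (log2 difference -1.18, adjusted p = 0.00314).

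Some markers of the sorted cells and of others moved with the same contrast. The sum of the general TEC markers (Epcam, Krt8, Krt18, Cdh1) was 4066 to 11823 FPKM in early and 2754 to 6463 FPKM in late cTECs. It was mostly Krt18 and Krt8 (cTEC medians of 4183 and 2087 FPKM, against 103 for Epcam and 127 for Cdh1). The log2 differences were -1.05 for Krt18 and -0.82 for Krt8, but 0.22 for Epcam and 0.30 for Cdh1, none of them called. The sum of 8 mesenchymal markers (Dcn alone had a median of 241 FPKM in cTECs) was 77.8 to 360 FPKM early and 299 to 686 FPKM late, with 2 of the 6 tested called higher, while Pdgfra was at 0 in 12 of the 28 cTEC samples. Of 9 mTEC markers, Aire (log2 difference 2.08, adjusted p = 0.00254) and Cd80 (3.10, adjusted p = 0.00289) were called higher in late cTECs, and the sum of the 9 was 3429 to 7640 FPKM early and 4170 to 6797 FPKM late. Aire and Cd80 were low in cTECs (medians of 5.66 and 2.26 FPKM). The median log2 difference of the 9 was 0.60, while Fezf2 (-0.20) and Krt5 (-0.38) were lower and Ccl21a was near 0 (0.01). The part of these markers in the result was not tested, and in bulk samples fewer cells of a type and less RNA per cell cannot be told apart.

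Pax9 was at 24.6 to 57.2 FPKM in early cTECs, with a median of 32.1 FPKM, and at 49.2, 42.3, 39.8 and 60.5 FPKM from D16 to D28. All 4 late samples were above the early median, with ranges that overlapped (log2 difference 0.45, SE 0.16, adjusted p = 0.0515). Trp63 was at 70.6 to 162 FPKM early, with a median of 96.2 FPKM, and at 132, 119.8, 114 and 181 FPKM late, also all above the early median (0.39, SE 0.16, adjusted p = 0.0883). Eya1 had a log2 difference of 0.33 (SE 0.12, adjusted p = 0.0739). None of these passed the test.

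Hoxa3 was at 4.29 to 16.5 FPKM in early cTECs and at 5.58, 2.04, 5.82 and 6.84 FPKM late. The 4 late samples were all below the early median and overlapped with 7 early samples (log2 difference -0.83, SE 0.29, adjusted p = 0.0513). The lowest, D20, is one of the least correlated libraries, and without those the difference was -0.32 (adjusted p = 0.365). Six4, a homeobox partner of Eya1, gave -0.11 (SE 0.21, adjusted p = 0.766).

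**Figure D2:**
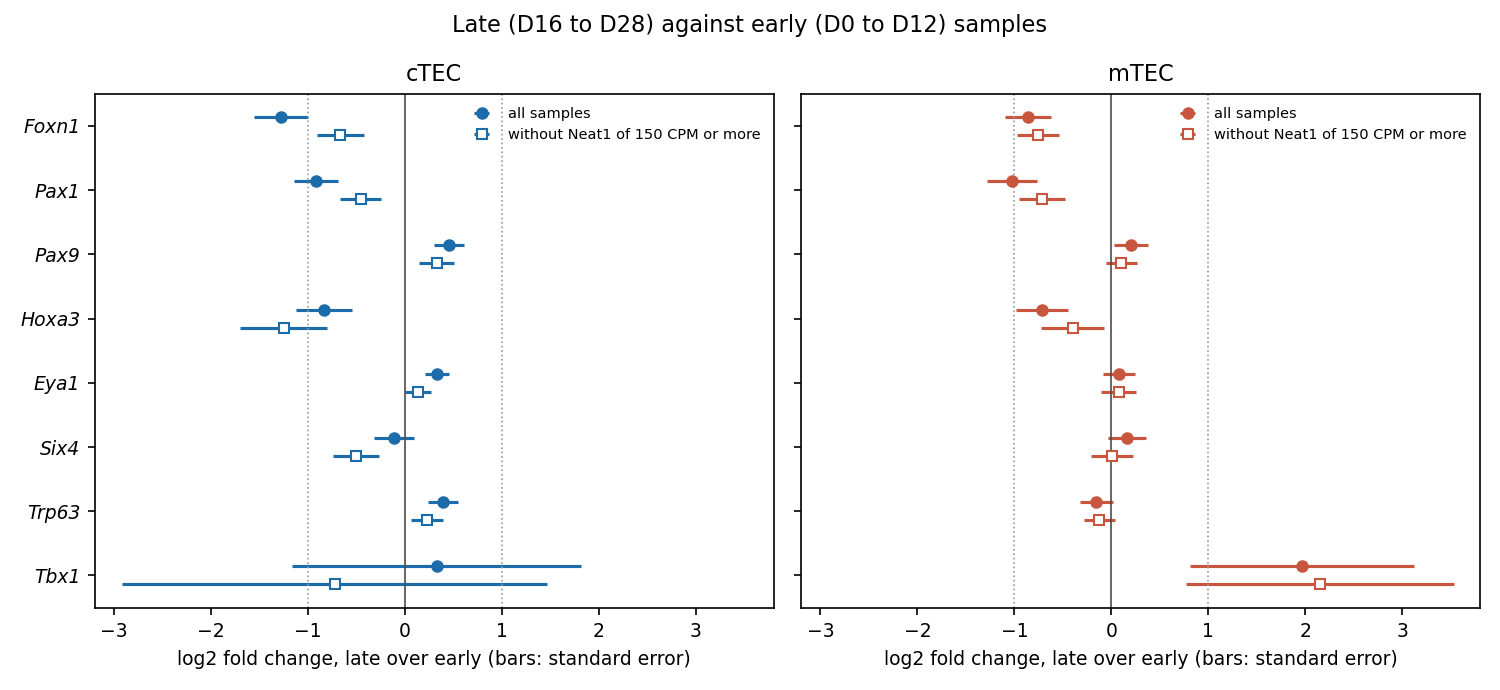
Log2 fold change between late and early samples (horizontal axis, with bars for the standard error) for each regulator in cTECs (left) and mTECs (right), from all samples (filled) and without libraries of at least 150 CPM of Neat1 (open). Dotted lines mark 2-fold. Foxn1 lies at -1.28 and Pax1 at -0.91 in cTECs, and both move toward 0, to -0.67 and -0.46, without those libraries.

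In mTECs, 0 of 8 members were called between the late and the early phase (0 also by edgeR or DESeq2), against 0.186% of genes, and 3 had an unadjusted p under 0.05, as did 19.9% of genes. Pax1 was at 114 to 370.5 FPKM early, with a median of 220.0 FPKM, and at 56.7, 111, 128 and 156 FPKM late. Its log2 difference was -1.02 (SE 0.26, adjusted p = 0.0300), with 2 of the 4 late samples below all early ones. The lowest, D16, is a high-Neat1 library, and without it the difference was -0.69 (adjusted p = 0.210). Foxn1 gave -0.86 (SE 0.23, adjusted p = 0.0422) and Hoxa3 -0.71 (SE 0.27, adjusted p = 0.136). Pax9 (0.20, SE 0.18), Eya1 (0.08, SE 0.16), Six4 (0.16, SE 0.20) and Trp63 (-0.15, SE 0.17) were near 0. Some cTEC markers found in these mTEC samples moved with the contrast. Their list had a median log2 difference of -1.08, with 0 of 6 called by limma-voom (4 at an unadjusted p under 0.05). Among them, named after their values were seen, were Psmb11 (-2.76, adjusted p = 0.0299) and Ccl25 (-1.42, adjusted p = 0.0175). Prss16 was at -1.77 and Dll4 at -0.74, whereas Ly75 (-0.14) and Enpep (0.15) were near 0. Psmb11, Ccl25, Prss16 and Dll4 are also among the FOXN1 targets counted below. The part of the cTEC markers in the Pax1 and Foxn1 differences was not tested.

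Whether the late difference itself differed between the cell types was tested as an interaction, and 0 of 8 members were called, against 0.00544% of genes, and 1 had an unadjusted p under 0.05, as did 11.1% of genes. That 1 was Trp63, whose late against early log2 difference was 0.59 higher in cTECs than in mTECs (SE 0.23, adjusted p = 0.279). edgeR and DESeq2 called 0.

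A test of each regulator's ratio to Foxn1 in the same sample asked whether it changed differently from Foxn1. The median ratio of Pax1 to Foxn1 in cTECs was 2.87 early and 3.55 late. The corresponding ratios were 0.154 and 0.491 for Pax9, 0.205 and 0.530 for Eya1, and 0.463 and 1.35 for Trp63, which was thus above Foxn1 in some late samples. The log2 ratio to Foxn1 was higher in the late phase by 1.74 for Pax9 (SE 0.38, limma adjusted p = 0.00170), 1.66 for Trp63 (SE 0.41, adjusted p = 0.00254) and 1.61 for Eya1 (SE 0.38, adjusted p = 0.00205).

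Those 3 of 7 were called, but so were 30.2% of all genes, whose median log2 ratio was 1.28 higher, since the level of Foxn1 enters every ratio. Pax1 did not pass the test at 0.36 (SE 0.19, adjusted p = 0.0981, 95% interval -0.01 to 0.73), nor did Hoxa3 at 0.52 (SE 0.47, adjusted p = 0.354). Without the high-Neat1 libraries 0 of 7 were called. In cTECs 4 members and 61.4% of genes had an unadjusted p under 0.05. In mTECs 0 of 7 were called, against 0.00% of genes, and 3 had an unadjusted p under 0.05, as did 44.0% of genes. Pax1 there had a log2 ratio difference of -0.17 (95% interval -0.59 to 0.25).

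Pax1 was the gene most like Foxn1 across the cTEC samples, and the member most like it across the mTEC samples. In cTECs the Pearson r of log2(FPKM + 0.5) between them was 0.96 (Spearman rho 0.93, n = 28 samples), the highest of 15843 genes tested. It was 0.93 without the 2 samples farthest from the median of Foxn1, 0.91 in the 24 samples without high Neat1, and 0.97 for the deviations of the 18 replicated samples from their time point means. In mTECs r was 0.85 (rho 0.84), and 6 of 17742 genes were more like Foxn1. The samples share time points, depth and composition, so these values describe likeness and nothing more.

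**Figure D3:**
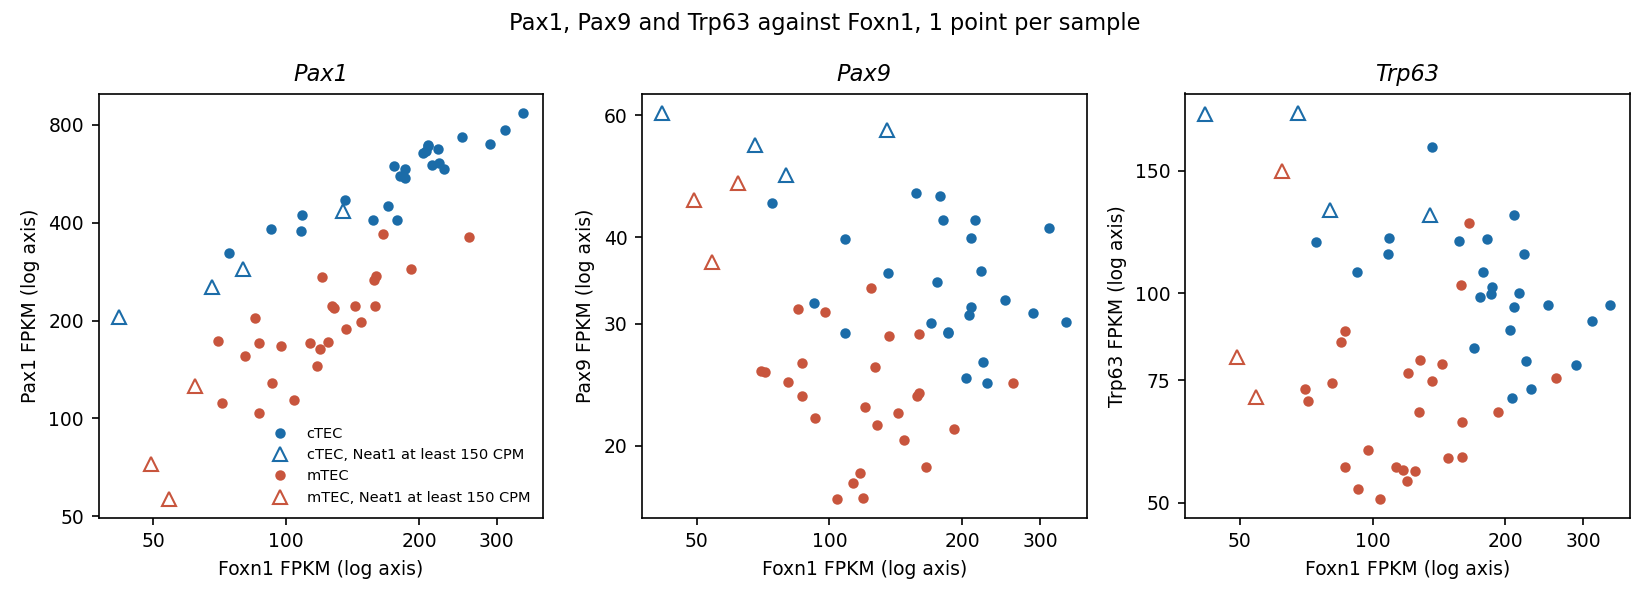
FPKM of Pax1 (left), Pax9 (middle) and Trp63 (right) on the vertical axes against FPKM of Foxn1 on the horizontal axes, all on log scales, with 1 point per sample (cTECs blue, mTECs red, and triangles for libraries with at least 150 CPM of Neat1). Pax1 rises along a line with Foxn1 within each cell type (r = 0.96 in cTECs and 0.85 in mTECs), with the cTEC line above, while Pax9 and Trp63 do not rise with it.

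Pax9, the paralogue of Pax1, had a negative r with Foxn1, -0.59 in cTECs and -0.53 in mTECs. It was nearer to 0 without the high-Neat1 libraries (-0.25 and -0.16). Between D-2 and D6 in cTECs the log2 differences of Pax9 (0.22) and Foxn1 (1.19) had the same sign, and neither was called. Trp63 had the most negative r of the members in cTECs, -0.73 (rho -0.71), where 51 of the 15843 genes had an r at or below it, and -0.51 without the high-Neat1 libraries. In mTECs its r was -0.11, and 0.18 without those libraries. Eya1 (-0.55 and -0.16), Six4 (-0.40 in both) and Tbx1 (-0.38 and -0.16) were also negative, and Hoxa3 was at 0.14 and 0.34. Without the high-Neat1 libraries Eya1 was at -0.36 and -0.05, Six4 at -0.05 and -0.16 and Tbx1 at -0.43 and -0.28. Hoxa3 was then at 0.27 and 0.31.

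The same libraries carried other differences. Neat1 itself had an r of -0.79 with Foxn1, -0.81 with Pax1, 0.71 with Pax9 and 0.62 with Trp63 in cTECs, and of -0.77, -0.84, 0.66 and 0.06 in mTECs. The sum of the 4 general TEC markers, mostly Krt18 and Krt8, had an r of 0.87 with Foxn1 and 0.91 with Pax1 in cTECs, and of 0.88 and 0.81 in mTECs. Their part in the likeness of Pax1 and Foxn1 was not tested.

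**Figure D4:**
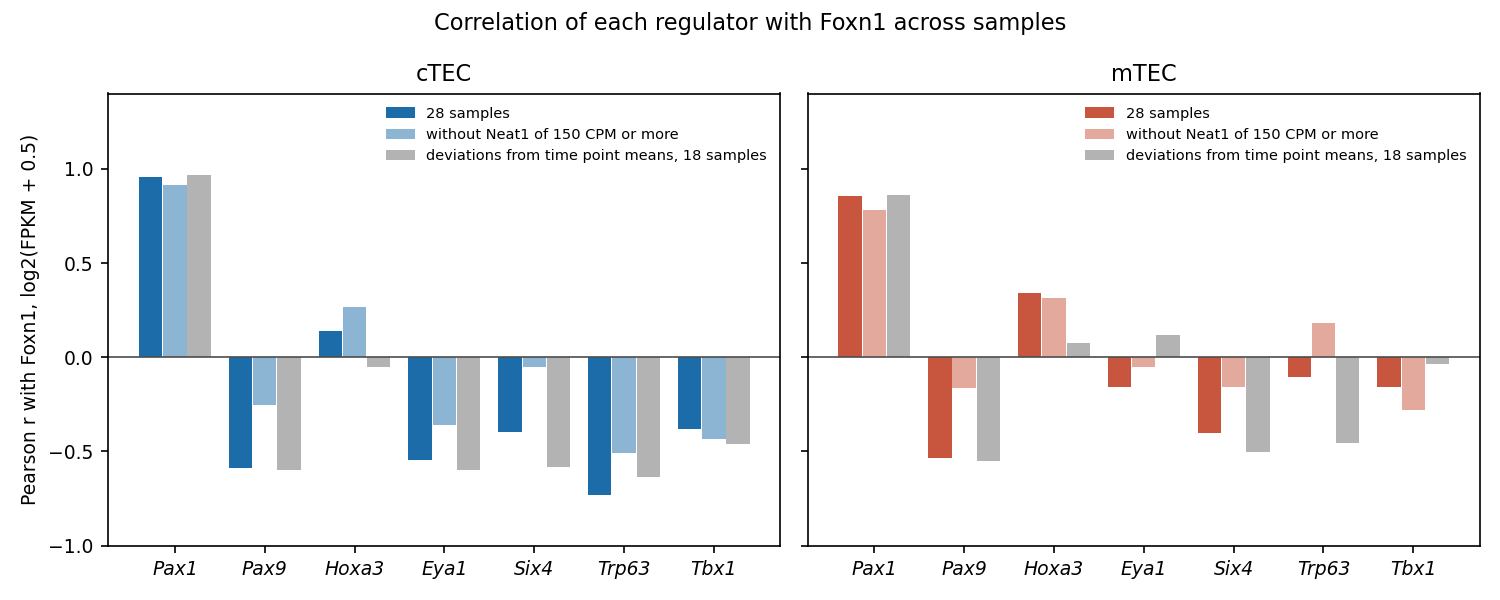
Pearson r with Foxn1 (vertical axis, log2(FPKM + 0.5)) of the 7 other regulators in cTECs (left) and mTECs (right), over 28 samples (dark), without the libraries of at least 150 CPM of Neat1 (pale) and for deviations from time point means in 18 samples (grey). Pax1 stays at 0.78 or more in all 6 bars, whereas Pax9 moves from -0.59 to -0.25 in cTECs without those libraries.

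Among genes with a mean of at least 5 FPKM, those most like Foxn1 after Pax1 (r = 0.96) in cTECs were Dact2 (r = 0.93) and Slc46a2 (0.91), and in mTECs Map1s (0.93), Krt18 (0.91) and Gcat (0.89). Those most like Pax1 were Foxn1, Cdh4 (0.95) and Dact2 (0.94) in cTECs, and Dact2 (0.95), Klhdc7a (0.93) and Trim29 (0.92) in mTECs. Dact2 was thus on the Pax1 list in both. The genes most like Pax9 were Abhd2 (0.87), Brd2 (0.87) and Trio (0.86) in cTECs and Pkd2 (0.79), Eif4a2 (0.78) and H3f3b (0.78) in mTECs.

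For Trp63 the nearest were Fam102b (0.89), Col12a1 (0.85) and Sema6d (0.80) in cTECs and Clstn1 (0.84), Enpp5 (0.82) and Dsp (0.81) in mTECs. For Eya1 they were Hacd3 (0.84), Ddhd2 (0.84) and Mdm2 (0.81), and Dll1 (0.72), Iffo2 (0.71) and Ets1 (0.70). Six4 was nearest to Pds5a (0.79), Tmem87a (0.78) and Notch2 (0.77), and to Clcn2 (0.89), Zscan26 (0.86) and Tsc22d2 (0.84). Hoxa3 was nearest to Btrc (0.76), Sptssb (0.75) and Ddx41 (0.71) in cTECs, and to Prrc2b (0.84), Ethe1 (0.82) and Jak1 (0.81) in mTECs. Apart from Pax1 and Foxn1 in cTECs, no member was among the 3 genes nearest to another.

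The level of Hoxa3 shows what a per-length value can hide. In the mTEC sample D3 replicate 1 it was listed at 44.6 FPKM, against at most 8.16 FPKM in the other 27 mTEC samples. RSEM had given it there an effective transcript mixture of 589 bases, against up to 2591 bases elsewhere, on 110 estimated counts. Scaled by library total alone it was at 22.5 CPM in that sample, against 12.4 and 17.4 CPM in the other D3 samples. The tests use counts and not FPKM. Eya1 also varied in length, from 1026 to 4197 bases, and Foxn1 and Tbx1, with 1 transcript each, did not.

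Between the cell types, Pax1 was the sole member called. It was higher in cTECs (log2 difference 1.52, SE 0.14, limma-voom adjusted p = 3.7e-10, 2.87-fold, over the 6 replicated time points) and higher at 16 of 16 time points, with ratios of cTEC to mTEC means from 1.32 to 5.10. That made 1 of 8 members called, against 16.8% of all genes, and 1 of 8 higher in cTECs, against 4.38%. edgeR and DESeq2 called 1 as well, and 6 members and 46.6% of genes had an unadjusted p under 0.05.

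Further members were higher in cTECs with an adjusted p under 0.01 but less than 2-fold. They were Hoxa3 (log2 difference 0.82, SE 0.18, adjusted p = 0.000466), Foxn1 (0.59, SE 0.16, adjusted p = 0.00384), Trp63 (0.49, SE 0.09, adjusted p = 0.000114) and Pax9 (0.45, SE 0.13, adjusted p = 0.00457). Of all genes tested, 24.5% had a limma-voom p at or below that of Pax9, the highest among these, in either direction and at any fold. Pax9 was higher at 16 of 16 time points, Trp63 at 15 and Foxn1 at 14. Hoxa3 was higher at 11, with ratios of cTEC to mTEC mean FPKM from 0.37 to 4.39. Eya1 gave 0.30 (SE 0.09, adjusted p = 0.0120). Six4 gave -0.11 (95% interval -0.42 to 0.20) and was higher in cTECs at 6 of 16 time points.

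The cTEC excess of Pax1 was larger than that of Foxn1. The log2 ratio of Pax1 to Foxn1 was 0.96 higher in cTECs (SE 0.10, limma adjusted p = 7.3e-09), which is 1.95-fold and just short of a call, and 0 of 7 members were called, against 16.9% of genes. The sole member at an unadjusted p under 0.05 in this test, which 45.3% of genes reached, was Pax1. For Pax9 (-0.06, SE 0.26), Trp63 (-0.03, SE 0.23) and Eya1 (-0.16, SE 0.24) the ratio to Foxn1 was near the same in both cell types.

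**Figure D5:**
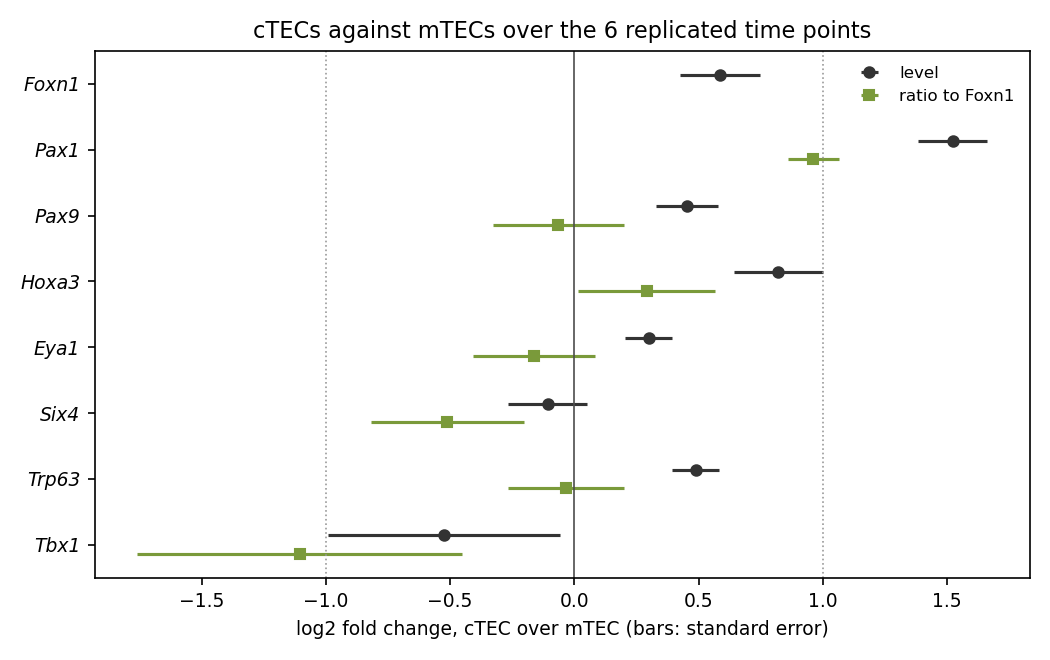
Log2 fold change of cTECs over mTECs (horizontal axis, with bars for the standard error) over the 6 replicated time points for each regulator's level (black circles) and its ratio to Foxn1 in the same sample (green squares). Dotted lines mark 2-fold. Pax1 lies apart at 1.52 for its level and 0.96 for its ratio.

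Tbx1, a T-box factor of the pharyngeal apparatus, was measured with 0 to 269 estimated counts in cTECs and 0 to 406 in mTECs, so that its folds carry wide errors. It was listed at 0 in the cTEC samples D1, D3 replicates 2 and 3, D5, D6 replicate 1 and D20. Its highest cTEC values were 5.53 FPKM (D-2 replicate 2), 5.01 FPKM (D24) and 3.58 FPKM (D10), and its highest mTEC values 7.16 FPKM (D24) and 4.77 FPKM (D0 replicate 1). In mTECs it was at 0.00, 0.00 and 0.14 FPKM at D3 and at 1.96, 1.83 and 1.52 FPKM in NPC.

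No comparison called Tbx1, the nearest being any change over time in mTECs (limma-voom F test, adjusted p = 0.0263). In cTECs it differed between D6 and D-2 by -3.34 on the log2 scale (SE 1.37, adjusted p = 0.182), a fitted value against samples at or near 0. The sum of the parathyroid markers Gcm2, Pth, Casr and Chga was 9343 FPKM in cTEC D-2 replicate 2 and 5728 FPKM in cTEC D24, but 90.1 FPKM in cTEC D10. Over the 28 samples its r with Tbx1 was 0.51 in cTECs and 0.39 in mTECs. Its part in the Tbx1 level was not tested.

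Genes around the members were counted from lists chosen with earlier results of these data known. Of 19 further genes of the pouch network (signals, receptors and transcription factors of pouch patterning), 13 were measured in cTECs and 14 in mTECs. None were called by limma-voom at D-2 against NPC, at D6 against D-2 or in the late phase in either cell type, nor by edgeR, and DESeq2 called 1, at D6 in mTECs. At an unadjusted p under 0.05 there were 0, 2 and 4 in cTECs and 4, 3 and 4 in mTECs. Without the high-Neat1 libraries 1 was called in late cTECs and 1 at D-2 in mTECs, and without the least correlated ones 1 at D6 in cTECs and 1 at D-2 in mTECs. Their median log2 difference was -0.21 at D6 in cTECs and 0.18 late, against medians of -0.02 and -0.04 over all genes. Between cell types 3 of 15 were called, a share near the 16.8% of all genes. Bmp4, a morphogen of the thymic domain of the pouch, was higher in cTECs (3.25, SE 0.61, adjusted p = 6.9e-05). Its antagonist Chrd (-1.95, adjusted p = 0.00544) and the retinoic acid enzyme Aldh1a2 (-4.17, adjusted p = 1.2e-07) were higher in mTECs.

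Genes that FOXN1 is known to activate were counted in the same way. The paper had already reported from these cTEC samples that the 7 listed here fell in pregnancy and rose in early regeneration. Their counts at D-2 and D6 in cTECs were thus known in advance and are no independent support. Of 7, all were called higher at D6 than at D-2 in cTECs, where 1.58% of all genes were called, with a median log2 difference of 3.71 against 1.19 for Foxn1. Dll4, Ccl25, Psmb11 and Prss16 are also on the list of cTEC markers above, so the counts of both lists share these genes. The Notch ligand Dll4 was higher by 3.96 (SE 0.53, adjusted p = 0.000186), the thymoproteasome subunit Psmb11 by 3.73 (SE 0.45, adjusted p = 6.8e-05) and the serine protease Prss16 by 3.72 (SE 0.25, adjusted p = 3.3e-07). At D-2, 2 of 7 were called lower than in NPC, against 0.0947% of genes (5 by edgeR, 6 by DESeq2, 5 without the high-Neat1 libraries and 6 without the least correlated ones), Prss16 by -2.80 (adjusted p = 5.0e-05) and the protease Ctsl by -1.19 (adjusted p = 0.00413). In the late phase 0 of 7 were called in cTECs by any of the 3 tools (2 at an unadjusted p under 0.05, and 1 called lower without the high-Neat1 libraries), with a median of -0.70. Between the cell types 6 of 7 were called higher in cTECs, against 4.38% of genes, and of these Ccl25, Psmb11 and Prss16 are also on the cTEC marker list.

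In mTECs 3 of 7 were called for any change over time, against 0.547% of genes (2 by edgeR, 5 without the high-Neat1 libraries). At D6 against D-2 limma-voom called 0, with 7 of 7 at an unadjusted p under 0.05 and a median log2 difference of 1.51, while edgeR called 1, DESeq2 4 and limma-voom without the high-Neat1 libraries 2. Prss16 was at 2.68 (SE 0.40, adjusted p = 0.0121) and the chemokine Ccl25 at 1.78 (SE 0.30, adjusted p = 0.0143). In the late phase limma-voom and edgeR called 0 and DESeq2 3, with 6 of 7 at an unadjusted p under 0.05 and a median of -0.999. Prss16 and Ccl25 are named here after their values were seen.

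Of 17 genes of p63-dependent basal epithelium, 0 were called by limma-voom at D6 in cTECs, against 1.58% of genes, with 7 at an unadjusted p under 0.05, 1 called lower by edgeR and 3 by DESeq2. Their median log2 difference there was -0.57, against -0.02 over all genes, with Klf5 at -2.07 (adjusted p = 0.01002), Itga3 at -0.62 (adjusted p = 0.0134) and Perp at -0.58 (adjusted p = 0.0231), named here after their values were seen. In mTECs 0 were called at D6 by any of the 3 tools (4 at an unadjusted p under 0.05). In late cTECs 2 of 17 were called, against 2.08% of genes, and their median was 0.06. The 2 were the basement membrane anchors Col17a1 (log2 difference 1.96, SE 0.24, adjusted p = 1.7e-05) and Fras1 (1.44, SE 0.22, adjusted p = 0.000157), both higher, as the estimate of Trp63 was. Klf5 was called higher at D-2 than in NPC in mTECs (1.78, SE 0.30, adjusted p = 0.00440). Between cell types 4 of 17 were called, against 16.8% of genes. Krt14 (-1.86) and Zfp750 (-1.52) were higher in mTECs and Fras1 (1.60) and Jag2 (1.28) in cTECs, so the basal keratin went against Trp63 (0.49).

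Among 38 paralogues of the members, 17 were measured in cTECs and 25 in mTECs. Trp73, the p53 family member next to p63, was called higher in late cTECs (log2 difference 1.44, SE 0.20, adjusted p = 4.2e-05), as was Tbx15 (2.56, SE 0.64, adjusted p = 0.00969), which made 2 of 17, against 2.08% of genes (0 by edgeR, 1 by DESeq2, 1 without the least correlated libraries). In mTECs Foxn3 was called higher at D-2 than in NPC (1.01, adjusted p = 0.00970). Of 25 paralogues tested between the cell types, 10 were called, against 16.8% of genes (4.38% higher in cTECs). In mTECs 9 were higher (6 without the high-Neat1 libraries), the widest being Tbx5 (-4.78), Pax7 (-4.58) and Tbx3 (-4.38). Their median FPKM was 0, 0 and 0.28 in cTECs and 0.835, 0.79 and 3.675 in mTECs, so these folds stand against a floor. Genes entered this test by passing the filter in either cell type. Of the 25, 17 had passed in cTECs, and the rest entered through mTECs alone, which favours that direction. Trp73 alone was higher in cTECs (1.51, SE 0.33, adjusted p = 0.000388).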

How the data were processed

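RNA was extracted from sorted cTECs and mTECs, 1 mouse per sample, and poly-A libraries were made with a KAPA RNA HyperPrep kit. Per the submitters' notes, reads were converted with bcl2fastq 2.20, trimmed with Trimmomatic 0.35, aligned to GRCm38 with STAR 2.5.1b and quantified with RSEM 1.2.28. The authors deposited, for each sample, an expected count per gene, which splits shared reads by estimate, and the FPKM, which divides by depth and by a transcript length estimated in that sample.

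Expected counts were rounded and tested with limma-voom (limma 3.58.1, edgeR 4.0.16 for TMM scaling, R 4.3.3) over all genes with a mean of at least 0.5 FPKM in the 28 samples of a cell type (15845 genes in cTECs, 17743 in mTECs, 18394 in either). Time point contrasts came from fits with 1 mean per time point, late against early from fits with 1 mean per phase, and cell types from a fit over all 56 samples. Ratios to Foxn1 were fitted with limma on each gene's log2 CPM minus that of Foxn1. Calls needed a fold of at least 2 and an adjusted p of at most 0.01. FPKM was used for levels and, as log2(FPKM + 0.5), for correlations. The scripts were tested on simulated data. Libraries of 4561208 to 108547384 counts leave Tbx1, Six4 and Hoxa3 with the fewest counts.

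The members and lists were chosen with earlier results of these data known. All members are named; from the lists, at most 4 called genes of largest fold in a comparison; and for each member the 3 genes of highest r among those with a mean of at least 5 FPKM. Other tools (edgeR, DESeq2 1.42.0), scaling, filters, weights, thresholds, sample sets, the replicate block, another phase border and each replicate left out were tried as alternatives. Leaving out high-Neat1 or least correlated libraries, other tools for the lists, and correlations on log2 CPM were added after seeing the data.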

Additional observations from a re-analysis of the deposited data

Results flagged for a closer look

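Tbx1 in mTECs was listed at 0.94, 0.95, 1.30 and 7.16 FPKM in the 4 late samples. The D24 sample (7.16 FPKM) stood apart by Dixon's ratio of 0.942, over the 95% critical value for 4 samples, the sole flag in 16 late groups, and chance flags about 1 group in 20. The cTEC sample of D24 was also the highest of its late group, at 5.01 FPKM.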

How the results depend on the processing

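The call of Foxn1 in late cTECs was the least stable result. The count of members called in late against early cTECs, 1, was 0 with edgeR, without the filter on low values, with D12 counted as late and without the high-Neat1 libraries, and 2 with sample quality weights and without the least correlated libraries. Leaving out 1 late sample gave 0 to 2 (0 without D16 or D28, 2 without D20). The adjusted p of Foxn1 ranged from 7.9e-06 to 0.658 over its alternatives. The count for the ratio to Foxn1 in late cTECs, 3, was 0 with D12 counted as late and without the high-Neat1 libraries, and 0 to 4 with 1 late sample left out (0 without D16 or D28, 4 without D20). In cTECs the count at D6 against D-2 was 1 instead of 0 without the high-Neat1 libraries. In mTECs the count for any change over time was 2 without the filter (Trp63, adjusted p = 0.00122, and Tbx1, adjusted p = 0.00260) and 1 at an adjusted p of 0.05 (Tbx1), that at D6 against D-2 was 1 without the filter (Foxn1, log2 difference 1.39), and that for late against early was 1 at an adjusted p of 0.05 (Pax1). The correlation of Pax9 with Foxn1 was -0.25 in cTECs and -0.16 in mTECs without the high-Neat1 libraries. The causes were not tested. The other 214 counts and 68 correlations under alternatives were within 1.5 times the count or within the tolerance used. Of 1830 estimates of single members under alternatives, 79 had the other sign, none of them called, and the higher level of Pax1 in cTECs was called under all 45 alternatives. At the replicated time points, cTEC and mTEC samples with the same title number did not deviate together (r from -0.16 to 0.10 in 16 pairs). The days with 1 sample, all late ones among them, could not be checked in this way. The replicate block changed no count of members called: with the replicate block as a term there were 0 members called in late gestation, at D6 and over time in either cell type. As a term the block was the replicate number, which no label gives as a batch. The main fits had also called 0 in these comparisons, and the late samples were outside the block fits, so this check is a weak one. Low counts limit Tbx1.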
